A study of Mus musculus with 3 samples.

Results

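Regions occupied by the homeodomain transcription factor Nkx2.2 upstream of genes, but outside CpG islands and a 1000 bp promoter window, were examined. They came from the merged region table of a mouse chromatin immunoprecipitation sequencing (ChIP-seq) study. A region belonged to this class when the table listed no CpG island in it and no gene containing it, listed it as upstream of at least 1 gene, and placed it more than 1000 bp from the nearest listed gene start. The rule selected 2017 of 37271 regions (5.41%), and a further 258 upstream regions were left out because they held a CpG island. No signal value entered the rule. Promoter here and below means within 1000 bp of a listed gene start. The deposited table marks promoters more widely, up to 8202 bp from a start within this class. By that wider marking 1579 of the 2017 regions count as promoter and 438 do not. Being downstream of another gene was no bar, and 523 of the regions were. The study compared cultured oligodendrocyte progenitor cells (OPCs), the dividing cells that give rise to myelinating glia, with oligodendrocytes (OLs) made from them in culture. All cells came from cortices of C57BL/6 mice at postnatal day 7 and were purified with an antibody to PDGFRA, a growth factor receptor of OPCs. The OPC library was made from cells kept in PDGF-AA (10 ng/mL), NT-3 (1 ng/mL) and CNTF (10 ng/mL). The OL library was made from such cells after 48 h without PDGF-AA and with the thyroid hormone T3 (40 ng/mL). Both used the same monoclonal antibody to Nkx2.2. Each state had 1 library, so no difference between OPC and OL has a replicate check and no p-value is given. The labels do not say how many mice were pooled. The assay holds no expression values, so the identity of the cells could not be checked against markers, and the input DNA library was not analysed here.

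Nkx2.2 binds DNA through a homeodomain and is best known as a repressor that recruits Groucho/TLE corepressors. It patterns the ventral neural tube and is made in oligodendrocyte progenitors, where its loss delays the appearance of mature myelinating cells. Sequence upstream of a gene but outside the promoter can hold enhancers or silencers, and such elements may act on a gene other than the nearest one.

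MicroRNA genes are given first because their mature products are short enough to print whole and several fall into seed families. 27 of 142 microRNA genes in the table (19.0%) had such a region upstream, where 13.9% of all table genes did. There were 24 regions in all, and 26 of the genes were matched to mature sequences in RefSeq (GRCm38.p6). The sequences below are the 5p products that share a seed with another 5p product in the set, together with miR-135a, miR-9 and miR-137. Each of these 3 has a locus with a region called in OPC only and was picked after its values were seen. Capitals mark the seed, bases 2 to 8 of the mature microRNA, which pairs with target messages.
mmu-let-7a-5p: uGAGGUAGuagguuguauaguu
mmu-let-7b-5p: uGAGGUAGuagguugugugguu
mmu-let-7c-5p: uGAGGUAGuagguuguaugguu
mmu-let-7d-5p: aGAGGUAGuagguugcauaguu
mmu-let-7e-5p: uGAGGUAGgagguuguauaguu
mmu-let-7f-5p: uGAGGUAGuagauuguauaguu
mmu-miR-125a-5p: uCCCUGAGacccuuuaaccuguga
mmu-miR-125b-5p: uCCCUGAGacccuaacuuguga
mmu-miR-26a-5p: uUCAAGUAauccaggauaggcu
mmu-miR-26b-5p: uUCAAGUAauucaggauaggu
mmu-miR-135a-5p: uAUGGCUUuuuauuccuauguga
mmu-miR-9-5p: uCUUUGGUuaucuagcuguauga
mmu-miR-137-3p: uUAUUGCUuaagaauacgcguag
The let-7 sequences share the seed GAGGUAG, the miR-125 pair shares CCCUGAG and the miR-26 pair shares UCAAGUA. Distances below are to the microRNA entry of the deposited table, and the start of any longer host transcript was not considered.

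The let-7 seed family was reached through 3 regions. 1 region lay upstream of the clustered genes for let-7a-1, let-7f-1 and let-7d, 3820 bp from the nearest of them. Its average signal was 5.15 in OPC and 3.14 in OL, and it was called in OPC only. Upstream of let-7c-2 and let-7b the signal was 5.14 in OPC and 5.26 in OL, so the libraries were nearly level there. A site upstream of miR-99b, let-7e and miR-125a had 2.23 in OPC and 4.21 in OL and was called in OL only. The other members of the miR-125 seed group also had more OL signal. Upstream of miR-125b-1 the signal was 3.86 in OPC and 4.93 in OL, and upstream of miR-125b-2 it was 3.31 and 7.05. In the miR-26 group, the region upstream of miR-26b had 3.14 in OPC and 6.85 in OL, while that upstream of miR-26a-2 had 5.23 and 5.27; both were called in both libraries. The mature miR-135a comes from 2 loci, and their regions differed. That of miR-135a-1 had 6.00 in OPC and was listed at 0 in OL, whereas that of miR-135a-2 had 7.22 in OPC and 7.71 in OL.

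The gene Mirn9-2, a source of the neural microRNA miR-9, had 3 upstream regions. The farthest, at 9119 bp, had an average signal of 5.12 in OPC and 1.08 in OL. The middle region, at 6410 bp, had 9.05 and 6.89, and the nearest, at 2950 bp, had 2.80 and 3.71. OPC signal was the higher at the 2 farther regions and the lower at the nearest. Upstream of Mirn137 a region had 6.56 in OPC and 5.38 in OL and was called in OPC only. Over the 24 microRNA regions, OPC calls covered 11 and OL calls 19, where 38.6% of all regions in the table were called in OPC and 85.3% in OL. Of the 24, 13 were called in OL only, 5 in OPC only and 6 in both. Among OL-only regions not described above, those of Mirn205 and Mirn193 were listed at 0 in OPC, with 4.53 and 4.76 in OL. Mirn804 also had an OPC-only region (3.67 in OPC, 2.09 in OL). Across the 24, the log2 ratio of OL over OPC signal had a median of 0.30, against 0.72 over all 2017 upstream regions.

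Across the whole class, OL-only calls were the largest group as deposited; with the OL calls limited to as many of the strongest as there were OPC calls, 37.8% were OL only and 37.6% OPC only. A call here means that an interval called by the authors in that library lies in the region. 1228 regions (60.9%, exact 95% interval 58.7 to 63.0) were called in OL only, and 61.4% of all 37271 regions were. 461 (22.9%, 21.0 to 24.8) were called in both, against 23.8% of all regions. 328 (16.3%, 14.7 to 17.9) were called in OPC only, against 14.7% of all. Counted by library, OPC calls lay in 789 upstream regions, against 38.6% of the whole table, and OL calls in 1689, against 85.3%. There were 2.14 OL calls per OPC call here and 2.21 over all regions. The shares of calls among upstream regions thus lay close to those of the whole table. The intervals cover counting error over regions only. The depth of the libraries is unknown, so the larger number of OL calls cannot be told apart from a difference in depth or in enrichment.

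Signal followed the same split. The average signal over a region, a value without a stated unit in the deposited table, had a median of 3.07 in OPC (quartiles 1.67 to 4.67) and 5.14 in OL (3.93 to 6.92). The regions were compared by log2((OL + 1)/(OPC + 1)), where 1 signal unit is the pseudocount, and the median of this ratio was 0.72 (95% interval from order statistics 0.68 to 0.76), against 0.74 over all regions. At a log2 ratio of 1 or more, meaning at least 2-fold more OL signal on this scale, stood 758 regions (37.6%), where the background over all regions was 37.5%. At −1 or less stood 130 (6.45%), with a background of 7.03%. The direction of this split rests on the scale of the deposited signal. With the median over regions called in both libraries set to 0 the counts were 565 and 208, and with the median over all regions set to 0, a shift of 0.74, they were 271 and 365. Ratios below are on the deposited scale, and a region with a log2 ratio under 0.74 had less OL signal relative to OPC than the median region of the table.

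**Figure D1:**
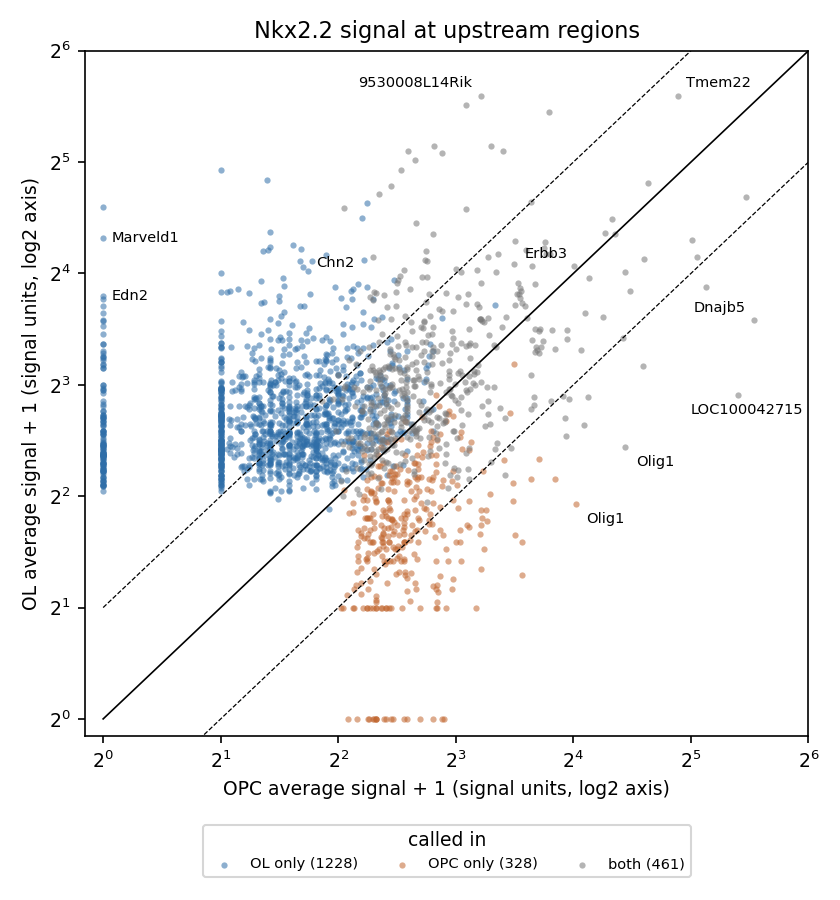
Average Nkx2.2 signal plus 1 in OPC (x axis) and OL (y axis), both in signal units on log2 axes, for the 2017 upstream regions, coloured by the library in which they were called. The solid line marks equal signal and the dashed lines a log2 ratio of 1 and −1. The OL-only regions lie mostly above the solid line and the regions called in both spread to the highest values on both axes.

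The call and the signal come from the same reads, so the values by call describe the calls and test nothing. In OPC-only regions the medians were 4.69 (OPC) and 2.33 (OL). OL-only regions had 2.00 and 5.24. Regions called in both had the most signal, 5.50 in OPC and 7.0 in OL, and were longer, with a median of 738 bp. A missing call did not mean missing signal: the region upstream of Aldh1l1, a folate enzyme used as an astrocyte marker, was called in OPC only with 4.06 in OPC and 4.18 in OL. 123 regions were listed at 0 in OPC and 19 in OL. Over the 2017 regions the OPC and OL signals were almost unrelated in rank (Spearman's correlation 0.05), while over the 461 called in both it was 0.41. These are descriptions across regions, in which each library is 1 sample and a region enters only if at least 1 library called it.

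Calls and ratios varied little with distance to the gene start. The regions lay 1001 to 10516 bp from the nearest start, with a median of 4871 bp. The median log2 ratio was 0.69 at 1 to 2 kb (311 regions), 0.67 at 2 to 3 kb (264), 0.79 at 3 to 5 kb (463), 0.68 at 5 to 7.5 kb (500), 0.74 at 7.5 to 10 kb (435) and 0.83 beyond 10 kb (44). The intervals of all 6 ranges overlapped. The share called in both was lowest at 3 to 5 kb (20.1%) and highest beyond 10 kb (34.1%), where the 44 regions give an interval from 20.5% to 49.9%. Spearman's correlation between distance and log2 ratio was 0.02 over the 2017 regions. At the inner limit, the region 1001 bp upstream of Appl1, an endosomal adaptor, had 3.46 in OPC and was listed at 0 in OL. Just outside it, the region 999 bp upstream of the histone gene Hist1h3e had 1.5 in OPC and 4.17 in OL.

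**Figure D2:**
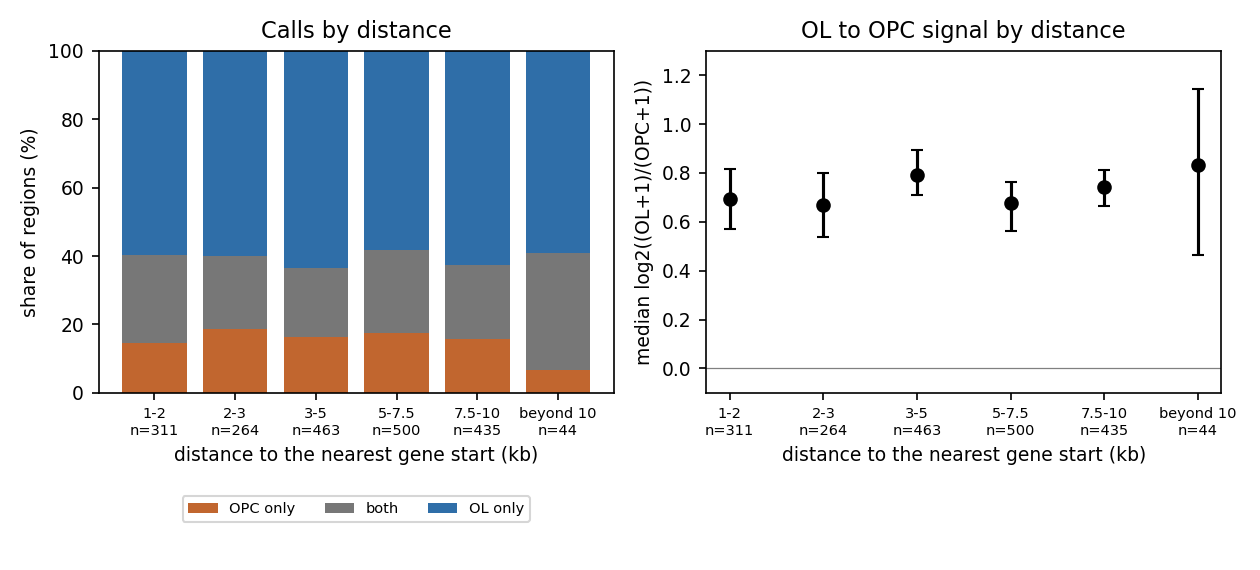
Left, share of upstream regions (%) called in OPC only, both libraries or OL only, by distance to the nearest gene start in kb; right, median of log2((OL + 1)/(OPC + 1)) with its 95% interval from order statistics. The medians lie between 0.67 and 0.83 and the intervals of the 6 ranges overlap.

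Next to the other position classes without a CpG island, upstream regions had a share called in both nearer to that of downstream regions than to that of promoters. 30.1% of 1102 promoter regions without an island were called in both libraries (27.4 to 32.9), an interval above that of the upstream regions. The share was 21.5% of 15122 gene-body regions, 21.2% of 1683 regions only downstream of genes and 21.4% of 10636 regions with no assigned gene. The median log2 ratio was 0.54 at promoters, 0.87 in gene bodies, 0.80 downstream and 0.75 at regions with no gene, with the upstream value of 0.72 between promoters and the rest. Regions are not replicates of a library, so these differences were not tested. Upstream regions made up 7 of the 100 strongest regions in OPC and 10 of the 100 strongest in OL. They made up 6.1% of the 1000 strongest in either library, near their 5.41% of the table. They were more crowded than the table as a whole: 13.0% lay within 1000 bp of another region, against 10.6% of all regions. The median gap was 7377 bp against 12828 bp. The whole table includes the regions with no assigned gene, and the gap was not computed for the other position classes. Whether the spacing is particular to upstream regions was therefore not tested.

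**Figure D3:**
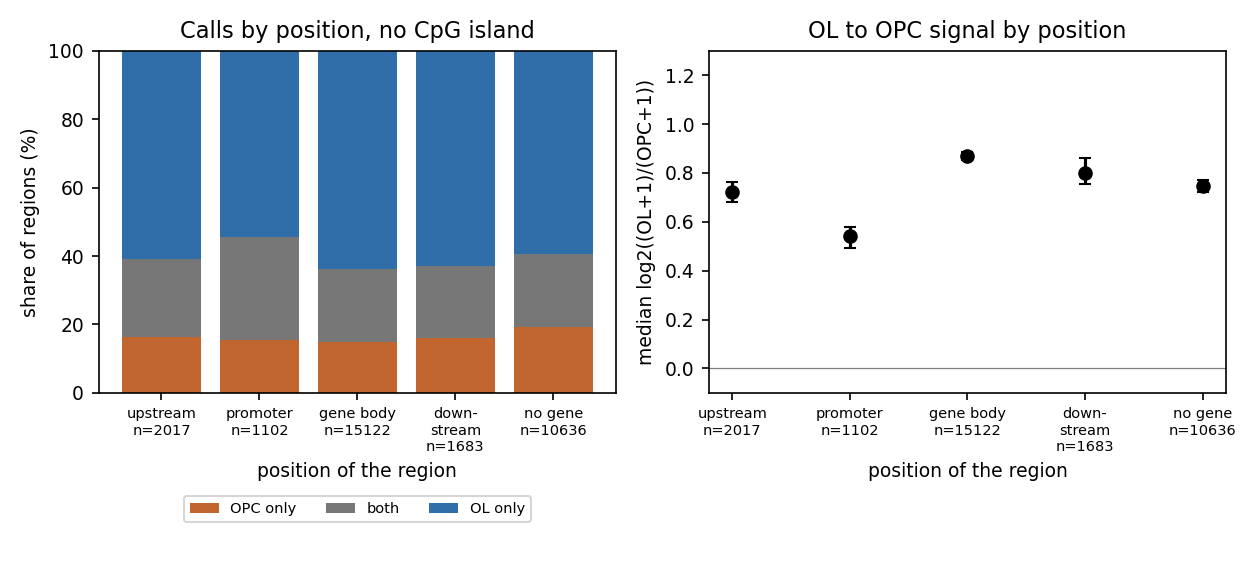
Left, share of regions (%) called in OPC only, both or OL only in 5 position classes without a CpG island; right, median of log2((OL + 1)/(OPC + 1)) with its 95% interval from order statistics. The upstream median of 0.72 lies above the promoter median of 0.54 and below the gene-body median of 0.87.

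The 10 strongest regions in each library were all called in both, and 1 region was in both lists. That shared region, chr9:100473580-100474157 and 2359 bp upstream of Tmem22, had 28.6 in OPC and 47.4 in OL. In OPC the strongest region, chr4:42955978-42956686, lay 9634 bp upstream of Dnajb5, a heat shock cochaperone, with 45.6 in OPC and 10.9 in OL. Next came the region 2996 bp upstream of 5330421F07Rik, with 43.2 and 24.8. Others in the OPC list lay near genes of known function. The region upstream of Sh2d3c, a signalling adaptor, and of Cdk9, a kinase of transcription elongation, had 32.2 in OPC and 16.8 in OL. That upstream of the chemokine gene Cxcl11 had 31.2 and 18.8. In 8 of the 10 strongest OPC regions the OPC signal was the higher.

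In OL, the region 3521 bp upstream of 9530008L14Rik, chr13:41946083-41946673, matched the shared region with 47.4, and had 8.28 in OPC. The region 5725 bp upstream of Asph, an enzyme that hydroxylates aspartate and asparagine residues, had 44.7 in OL and 7.5 in OPC. That upstream of Ppic, a cyclophilin prolyl isomerase, had 42.7 in OL and 12.9 in OPC. The secretory granule gene Scg2 had an upstream region with 33.3 in OL and 9.56 in OPC, and the region upstream of Rnaseh2c, an RNase H subunit, had 32.9 and 6.36. All 10 of these regions had more OL than OPC signal, but here and in the OPC list the choice by 1 library's signal favours that library.

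Among the 1008 regions above the median mean signal (4.09), 9 of the 10 with the largest log2 ratio were listed at 0 in OPC, so their ratios depend on the pseudocount and only signals are given. Upstream of Edn2, which encodes an endothelin peptide, the OL signal was 12.9, upstream of the homeobox gene Barx2 it was 10.9 and upstream of the potassium channel gene Kcnh1 it was 10.6. At the other end, 7 of the 10 were called in OPC only. Chic2 had an upstream region with 8.00 in OPC and 1.00 in OL (log2 ratio −2.17). That upstream of Cd97, an adhesion G protein-coupled receptor, had 10.4 and 2.14 (−1.85), and that upstream of Cpxm2, a carboxypeptidase-like protein, had 6.85 and 1.39 (−1.72). The same 10 included 2 regions of Olig1, described with the other progenitor genes, and the strong Dnajb5 region (−1.96).

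Of the genes named in the table, 2005 had such a region upstream. 1747 of them (87.1%) matched the RefSeq gene table. Among 21900 protein-coding genes, 7.53% had an upstream region, 2.98% had one called in OPC and 6.5% had one called in OL. Among the 12369 protein-coding genes with any region in the table the share was 13.3%, which is the reference for lists of genes that nearly all have regions. The lists below were compiled with earlier results of these data known, and their counts were not tested against other genes. As a reference for their log2 ratios, 37.5% of all regions in the table reached 1 and 7.03% reached −1. Of all upstream regions, 76.5% lay above 0.

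Upstream regions of oligodendrocyte progenitor genes went both ways. 11 of 35 listed genes had 16 such regions, of which 2 reached a log2 ratio of 1 and 4 reached −1. The median was 0.01, against 0.72 over all upstream regions, and was −0.73 with the median over all regions set to 0. With that setting none reached 1 and 5 reached −1. The receptor gene Pdgfra had 1 region at 8827 bp with 4.0 in OPC and 4.2 in OL. The matrix proteoglycan genes were also near equality: the Ncan region had 8.30 in OPC and 7.16 in OL, and the Bcan region 5.77 and 5.42. Regions with more OPC signal lay upstream of Mmp15, a membrane-bound metalloprotease (5.16 and 1.48), and of Ptprz1, a receptor phosphatase (3.46 and 1.91); both were called in OPC only. Regions with more OL signal lay upstream of Gria3, an AMPA receptor subunit (2.07 and 7.35), and of Kcnj16, an inward rectifier channel (2.21 and 4.30). Upstream of Rlbp1, a retinaldehyde-binding protein, the nearer region had 6.76 and 6.53 and the farther 2.07 and 4.0.

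The Olig1 and Olig2 locus accounted for 6 of those 16 regions. Upstream of Olig1, a bHLH transcription factor gene, 3 regions between 3581 and 6576 bp had more OPC signal and the fourth, at 9421 bp, had more OL signal (1.89 in OPC, 4.62 in OL). On the deposited scale, 3 of the 4 progenitor-gene regions at −1 or less were those of Olig1, and the other was that of Mmp15.

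Of 39 transcription factor genes of the lineage, 13 had 19 upstream regions, the Olig1 and Olig2 regions included. OL calls lay in 16, near the 83.7% over all upstream regions, and OPC calls in 9. The median log2 ratio was 0.30 (−0.44 with the median over all regions set to 0). SoxB and SoxE factors specify and maintain the lineage: the region of Sox2 had 5.62 in OPC and 7.17 in OL, and that of Sox8 had 4.44 and 5.68. The region 5277 bp upstream of Gm98, the table's name for the myelin regulatory factor Myrf, had 1.00 in OPC and 4.48 in OL. The differentiation factor Zfp488 had a region with 2.22 and 4.39. Upstream of Tcf7l2, a Wnt effector made during differentiation, a region at 2578 bp was listed at 0 in OPC and had 4.15 in OL. Hes5, a Notch-induced repressor of differentiation, had a region with 3.64 in OPC and 10.7 in OL. Nearly level values were seen upstream of Nfia (3.67 and 4.47), Nfib (4.11 and 3.82) and Klf9 (7.25 and 5.84). The Zeb2 region had more OL signal (3.23 and 4.76). These genes encode factors active in glial development. Myt1, a zinc finger factor of progenitors, had 3 regions whose OPC signal ran from 3.73 to 5.25 and OL signal from 4.77 to 5.04.

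The upstream regions of genes turned on in newly formed oligodendrocytes each had more OL signal. 6 of 30 listed genes had 8 such regions, and all 8 reached a log2 ratio of 1, as did 37.5% of all regions in the table. All were called in OL, where 85.3% of all regions were, and 1 was also called in OPC. The 8 are not independent, since 3 belong to Chn2. The median was 1.54, and it was 0.80, with 3 of 8 regions at 1 or more, when the median over all regions was set to 0. Chn2, a Rac GTPase-activating protein, had 3 of the regions. The nearest, chr6:54219796-54220975 at 2430 bp, had 2.35 in OPC and 15.2 in OL, and the others had 1.73 and 6.45 at 7180 bp and 2.73 and 8.33 at 8634 bp. The region upstream of Nfasc, the paranodal and nodal adhesion molecule neurofascin, had 3.75 in OPC and 13.7 in OL. That of the integrin gene Itgb3 had 4.06 and 11.0 and was the region called in both. The scaffold gene Cnksr3 had 1.5 and 7.54, and the sulfotransferase gene Ust 1.25 and 5.0. The Tcf7l2 region, given above, is the eighth.

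Myelin genes varied more. 10 of 52 had 11 upstream regions, with a median of 0.66. With the median over all regions set to 0 it was −0.08, none reached a log2 ratio of 1 and 2 reached −1. On the deposited scale 4 reached 1 and none reached −1. Besides Nfasc, the 4 were those of Adamts4, a metalloprotease of oligodendrocytes (1.00 in OPC, 4.67 in OL), Lgi3, a secreted protein (1.5 and 6.14), and Plekhb1, a pleckstrin homology protein (2.63 and 6.96). The Mog region, upstream of a surface protein of mature myelin, went the other way with 6.17 in OPC and 4.67 in OL and was called in OPC only. Pllp, the tetraspan protein plasmolipin, had a region at 6732 bp with 3.56 and 2.12 and another at 7684 bp with 2.73 and 5.73. The region of Tmem10, the oligodendrocyte protein Opalin, had 3.56 and 4.57. Hapln2, a matrix link protein of nodes, had 3.50 and 4.15, and the adhesion gene Mcam 1.82 and 3.45. The strongest region of the list, upstream of the adenylosuccinate synthase gene Adssl1, had 23.8 and 27.1. Of 13 genes listed as Nkx2.2 targets in earlier work, Pdgfra and Tcf7l2 alone had an upstream region, and both are given above.

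**Figure D4:**
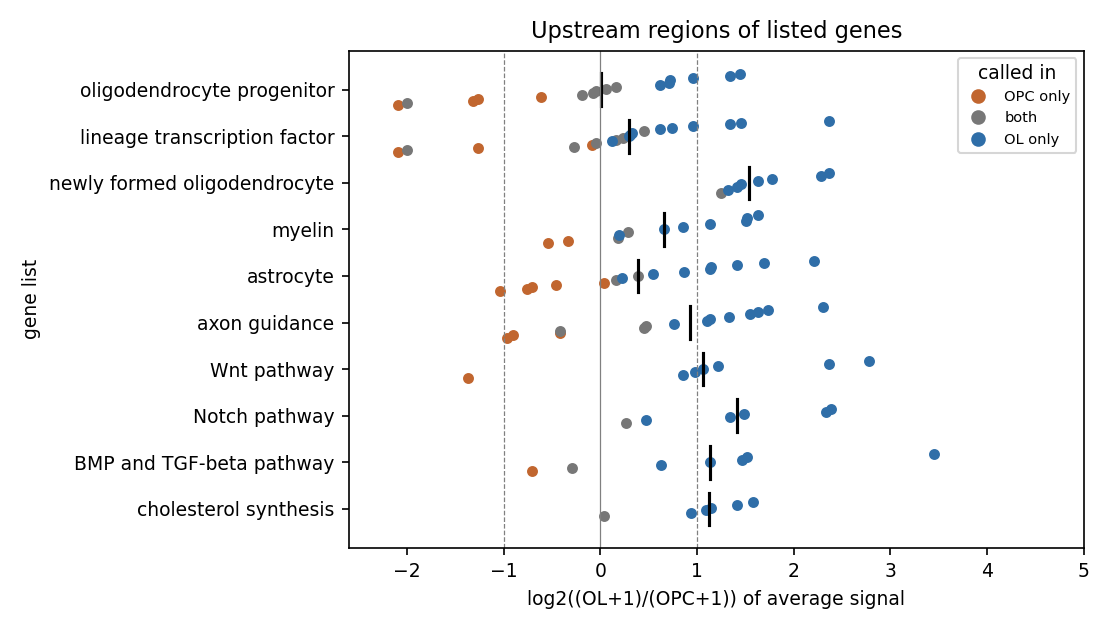
Log2 ratio of OL to OPC average signal at each upstream region of the genes in 10 lists, 1 point a region, coloured by the library in which it was called. Black bars are medians, the dashed lines mark 1 and −1, and a region listed at 0 in OPC is placed by the pseudocount; the 8 regions of newly formed oligodendrocyte genes all lie above 1, while the progenitor median is 0.01.

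Wnt signalling delays differentiation of progenitors. 7 of 65 Wnt pathway genes had 7 upstream regions. A log2 ratio of 1 was reached by 4 and −1 by 1, against 37.5% and 7.03% of all regions in the table. The median was 1.06. With the median over all regions set to 0 it was 0.32, and 2 of the 7 stood at 1 or more. Among the Frizzled receptors, the Fzd1 region had 1.08 in OPC and 13.2 in OL, the Fzd10 region 1.25 and 4.23 and the Fzd7 region 1.54 and 4.29. The ligand genes Wnt3a and Wnt9a shared a region with 1.5 and 3.93. The exception was Nkd1, an antagonist that binds Dishevelled, whose region at 8788 bp had 12.1 in OPC and 4.05 in OL and was called in OPC only.

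In the Notch pathway, which holds progenitors undifferentiated, 5 of 36 genes had 6 upstream regions and all 6 had more OL signal (4 at 1 or more, median 1.41). With the median over all regions set to 0, 4 of the 6 were above 0, 2 stood at 1 or more and the median was 0.67. The region upstream of Nrarp, a target and feedback inhibitor of Notch, had 3.75 in OPC and 23.8 in OL. The Hes-related target gene Heyl had 1.00 and 9.06, and Adam10, a protease that cleaves the receptor, had 1.00 and 4.6. Hes7, a segmentation clock repressor, had 2 regions nearer to equality, with 3.50 and 5.25 and with 4.23 and 5.28.

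BMP signalling favours astrocyte over oligodendrocyte fate. Of 48 BMP and TGF-beta pathway genes, 7 had an upstream region and 4 of the 7 regions stood at 1 or more (median 1.13). With the median over all regions set to 0, 1 of the 7 did (median 0.40). The ligand genes were Gdf10, with 3.92 in OPC and 12.6 in OL, Tgfb2, listed at 0 in OPC with 9.96 in OL, Inhba, with 1.67 and 3.11, and Gdf11, with 8.64 and 6.88. The protease gene Bmp1 shared with Lgi3 the region given above. The receptor gene Bmpr1a had a region called in OPC only, with 3.88 and 2.00, and the target gene Id3 had 2.14 and 5.90.

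Of 55 FGF, ErbB, PDGF and insulin pathway genes, 7 had a region. All 7 had more OL signal, by little at Pdgfra and Erbb3, where 76.5% of all upstream regions had a ratio above 0. A log2 ratio of 1 was reached by 2, against 37.5% of all regions in the table. The median was 0.26. With the median over all regions set to 0 it was −0.47, 5 of the 7 were below 0 and none reached 1. The neuregulin receptor gene Erbb3 had the strongest, with 15.0 in OPC and 15.7 in OL, while the ligand gene Igf1 had 2.57 and 6.50 and the insulin receptor substrate gene Irs1 had 1.82 and 5.31. The hedgehog coreceptor gene Gas1 was the only 1 of 17 hedgehog genes with a region (2.37 and 5.32).

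Cholesterol is a main component of myelin, and 5 of 25 synthesis genes had 6 regions with a median of 1.12, 4 of them reaching 1. With the median over all regions set to 0 the value was 0.38 and none reached 1. The regulator Insig1 had 2, the farther at 1.5 in OPC and 4.54 in OL and the nearer at 2.00 and 5.38. The enzyme genes Hsd17b7 (1.89 and 6.69) and Sc4mol (1.33 and 5.95) were the other 2 that reached 1 on the deposited scale. The Mvd region, the strongest, had 9.0 and 9.24.

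Axon guidance genes, many of which encode cues that progenitors follow, numbered 14 of 67 with 1 region each. On the deposited scale 7 reached 1 and none reached −1, with a median of 0.93. With the median over all regions set to 0, 1 reached 1, 4 reached −1 and the median was 0.19. The secreted semaphorin gene Sema3e had 3.50 in OPC and 13.96 in OL, and the transmembrane semaphorin Sema4a 1.00 and 5.20. Sema3f (4.17 and 1.75), Sema3g (3.69 and 2.50) and Sema5b (4.23 and 1.67) were called in OPC only, and Lingo1, an inhibitor of differentiation, had 5.27 and 3.68 and was called in both.

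Astrocyte genes had the largest share of the lists. 13 of 20 had 15 upstream regions, 5 reaching 1 and 1 reaching −1, with a median of 0.39. With the median over all regions set to 0, 1 reached 1, 4 reached −1 and the median was −0.35. The 2 glutamate transporter genes had more OPC signal and were called in OPC only: Slc1a3 had 7.67 in OPC and 4.32 in OL, and Slc1a2 had 5.95 and 2.37. So did both regions of the fatty acid binding protein gene Fabp7 (4.38 and 2.92; 4.93 and 2.50). The connexin gene Gjb6 had 1.00 and 8.22, the glutamine synthetase gene Glul 1.00 and 5.46, and the water channel gene Aqp4 1.00 and 4.31 at its nearer region. The intermediate filament gene Gfap was near equality (6.27 and 7.10). These counts concern occupancy in the purified cells and are no measure of astrocytes in the cultures, which was not tested.

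Lists for other cell types gave few regions, but their shares were not below the reference except in the vascular and microglia lists. 4 of 32 neuron genes (12.5%), none of 22 vascular genes and 1 of 19 microglia genes (5.26%) had an upstream region. So did 3 of 28 pancreatic islet genes (10.7%) and 3 of 29 liver and muscle genes (10.3%). The share over all protein-coding genes was 7.53%. In the same order, 17, 8, 9, 14 and 9 of the listed genes had any region, and of all such protein-coding genes 13.3% had an upstream one. Among the islet genes, where Nkx2.2 also acts, Insm1, a zinc finger repressor of endocrine differentiation, had 9.65 in OPC and 4.0 in OL and was called in OPC only, as was Chga, a granule protein (5.91 and 5.0). The other islet gene, Sst, which encodes somatostatin, was called in OL only (2.04 and 4.59). In the neuron list, the homeobox gene Dlx2 had a region listed at 0 in OPC with 6.73 in OL. Of 20 housekeeping genes 6 had a region, among them Eef1a1 (1.83 and 9.76) and Actb (7.08 and 6.14).

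Cell cycle genes had 6 regions upstream of 4 of 39 genes. Rb1, the retinoblastoma repressor, had 3.77 in OPC and 1.25 in OL, and E2f1, a factor it binds, had 1.44 and 5.50. 4 of 31 chromatin and corepressor genes had a region: the Groucho-family gene Tle2 had 4.25 and 4.67, the demethylase gene Jmjd3 2.70 and 5.75, the remodeller gene Chd8 4.68 and 8.65, and the deacetylase gene Hdac11 4.27 and 1.62.

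Most genes had a single such region: 1802 genes had 1, 186 had 2, 15 had 3 and 2 had 4. Among the 203 with at least 2, the log2 ratios were all above 0 at 119 genes, all below 0 at 21 and of both signs at 63. The 76.5% of upstream regions above 0 is a share of single regions and not a like reference. No matched share for genes was computed. Regions of 1 gene are not independent, since they share a chromosomal neighbourhood. Besides Chn2, each region of Abhd12, a lipid hydrolase, had more OL signal, the strongest with 5.11 in OPC and 13.6 in OL. Alox5ap, a cofactor of leukotriene synthesis, likewise had 4.77 and 14.7 at its strongest region. Serpinh1, a collagen chaperone, had 3 upstream sites with similar log2 ratios, from 0.79 to 0.88. The zinc finger gene Zfp516 had 2.06 in OPC and 18.1 in OL at 8089 bp.

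Other genes had regions of both signs. Eno1, a glycolytic enzyme, had 2.00 in OPC and 4.21 in OL at 2343 bp but 4.0 and 1.10 at 5953 bp. Zbtb20, a zinc finger repressor, had 4 regions. The strongest, at 3813 bp, had 5.14 and 10.8, and the next, at 5970 bp, had 4.62 and 3.82. Tmem107, a ciliary membrane protein, had 8.36 and 2.50 at 3669 bp but 4.42 and 8.85 at 7701 bp. Trim27 had 6.30 and 4.90 at 7588 bp and 1.91 and 9.0 at 7115 bp. Aurkb, a mitotic kinase, Prkcbp1 and the olfactory receptor gene Olfr12 were also mixed, while the regions of 4121402D02Rik and LOC100039268 all had more OL signal.

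**Figure D5:**
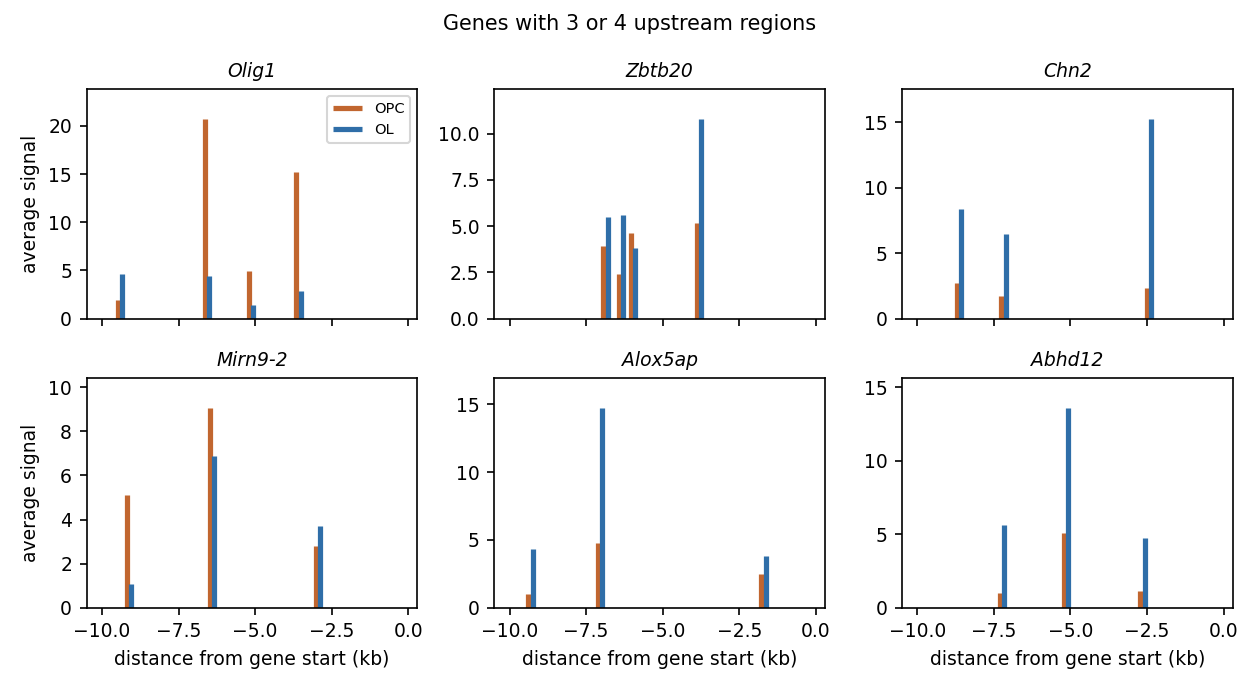
Average signal (y axis, signal units) in OPC and OL at each upstream region of 6 genes with 3 or 4 such regions, against distance from the gene start in kb (x axis, negative upstream). Each pair of bars is 1 region, set slightly apart for display; OL bars are the taller at all regions of Chn2, Alox5ap and Abhd12, and OPC bars at 3 of 4 regions of Olig1.

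The densest group of these regions lay on chromosome 11. Within 100 kb there, between 68850353 and 68939341, stood 9 upstream regions of Aurkb, Tmem107, Hes7 and Aloxe3, of 17 regions of any class, and 1554 of the windows begun at an upstream region held no other. Of the 9, 3 were called in OPC only, 2 in OL only and 4 in both. 4 had more OL signal and 5 more OPC signal. The longest upstream region of all, 2385 bp and merged from 3 intervals, belonged to it: it lay 1731 bp upstream of the lipoxygenase gene Aloxe3 and had 5.62 in OPC and 5.6 in OL. The Olig1 and Olig2 regions formed the next separate group with 6.

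Many genes with an upstream region had none at the promoter or in the gene body. Of 1821 nearest upstream genes, 594 (32.6%) also had a promoter region in the table and 683 (37.5%) a gene-body region, while 811 (44.5%) had neither. Over all 14473 genes of the table, 48.9% had a promoter region. That share is not a like reference, since a gene can be in the table through its promoter region alone. The 1821 genes were taken for an upstream region, and no matched share was computed for genes with neither. For 661 upstream regions the gene had a promoter region too, and the median log2 ratios were 0.66 upstream and 0.60 at the promoter. Spearman's correlation between the 2 ratios was 0.10 over these pairs. Upstream, 236 of the 661 pairs stood at 1 or more (35.7%), and at the promoter 144 did (21.8%). Both sites did in 53, which is 22.5% of the 236 and 36.8% of the 144, near the shares over all pairs. 2 pairs stood at −1 or less at both: Dnajb5, whose promoter had 5.0 in OPC and 1.89 in OL, and ENSMUSG00000074674.

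In 15 pairs the sites went opposite ways past 1. In 12 the upstream region had more OPC signal and the promoter more OL signal, 26.7% of the 45 pairs at −1 or less upstream. Over all pairs the promoter stood at 1 or more in 21.8%, so this share was near that of the pairs at large. Examples, chosen after their values were seen, were Prkar1a, a regulatory subunit of protein kinase A, and Mmp15. Upstream of Prkar1a the signal was 10.2 in OPC and 2.89 in OL, and at its promoter it was 1.5 and 4.38. At the promoter of Mmp15 it was 1.72 and 5.0. The 3 reverse pairs belonged to Tmem144, with 2.08 in OPC and 5.77 in OL upstream and 5.40 and 1.78 at the promoter, and to 8430439B09Rik, which had 2 upstream regions.

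Families defined by gene symbol were covered unevenly, against 2005 of 14473 table genes (13.9%) overall. 12 of 38 olfactory receptor genes (31.6%) had an upstream region, and all 14 of their regions were called in OL, as were 83.7% of all upstream regions. 13 of 68 collagen, laminin and integrin genes (19.1%) had 13 regions, all called in OL against the same 83.7%, and the laminin receptor subunit Itga6 had 1.00 and 9.11. Potassium channel genes numbered 13 of 69 (18.8%): the Kcna2 region had 1.00 and 8.44, while that of Kcnip3, a channel-interacting calcium sensor, had 8.27 and 2.68. 11 of 58 homeobox genes (19.0%) had a region, and Gbx2, a hindbrain patterning gene, had the most OPC signal with 9.71 in OPC and 3.57 in OL.

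Solute carriers (29 of 230 genes, 12.6%) and Zfp zinc finger genes (26 of 222, 11.7%) were near the overall share. The choline transporter gene Slc44a1 had 2.38 in OPC and 13.1 in OL. The monocarboxylate transporter gene Slc16a1, which serves lactate export from oligodendrocytes to axons, was listed at 0 in OPC and had 4.15 in OL. Ribosomal protein genes were covered least among the families with over 50 genes in the table, with 5 of 76 (6.58%). The median log2 ratios of families with more than 10 regions ran from 0.29 (Tmem genes) to 0.98 (collagens, laminins and integrins).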

How the data were processed

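The authors deposited 1 table of merged regions, which gives for each region and library the average and highest signal and whether a called interval is present. The signal values were used as deposited. The submitters' processing notes list mm9, the aligner BWA and the caller MACS (version 1.4.2). Depth, scaling between libraries, any use of the input and the threshold for calls were not given in the sources used here. Coordinates are those of the deposited table, with no statement of whether they begin at 0 or 1. Upstream and other regions were classed by the listed gene, position and distance, and promoters were regions within 1000 bp of a start. Ratios are log2((OL + 1)/(OPC + 1)) of average signal. Intervals of shares are exact Clopper-Pearson intervals at 95%. With 1 library per state no test was run. Python 3.11.15, numpy 2.4.6, pandas 2.3.3 and scipy 1.17.1 were used, and the calculations were tested on simulated data.

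The regions, the gene lists and the symbol families were chosen with earlier results of these data known. Named genes were the 10 strongest regions in each library, the 10 largest and 10 smallest ratios above the median mean signal, every region of the progenitor, lineage factor, newly formed oligodendrocyte, myelin and earlier target lists, up to 4 of each other list, genes with at least 3 regions, the longest region and those at the distance limit. Of these, some are given by count only. Names beyond 4 in the other lists, and those from families, the densest window and promoter pairs, were chosen after their values were seen. Gene names are those of the table; older names were matched to RefSeq (GRCm38.p6), from which the microRNA sequences were taken. Alternatives covered the pseudocount, scaling, signal measure, region definition and thresholds. Some listed genes and 1 symbol family are not reported here.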

Additional observations from a re-analysis of the deposited data

How the results depend on the processing

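Of 94 alternative values of the summary results, 51 stayed within the interval or range of the main value and 43 moved. Of 19 gene lists with a median above 0 on the deposited scale, 9 had one below 0 with all regions centred on 0. The share called in OPC only, OL only and both was 9.62%, 54.1% and 36.3% among regions at or above the all-region median signal. It was 21.1%, 78.9% and 0% among regions of 1 merged interval, where a call in both is impossible by construction. With the OL calls limited to as many as the OPC calls, 37.6% were OPC only and 37.8% OL only. The median log2 ratio was 0.80 with a pseudocount of 0.5, 0.61 with 2, 0.48 with regions called in both centred on 0, −0.0156 with all regions centred on 0, 1.00 on highest signal, 0.86 at or above the median signal and 0.91 for 1 merged interval. In the same order the share at 1 or more was 42.6%, 28.01%, 28.01%, 13.4%, 51.6%, 44.4% and 45.6%, and it was 34.99% with CpG island regions added and 60.04% at a threshold of 0.5. The share at −1 or less was 7.98% and 4.26% with pseudocounts of 0.5 and 2, 10.3% and 18.1% under the 2 centrings, 11.1% on highest signal and 14.1% at a threshold of −0.5. The median at 1 to 2 kb was 0.83 at or above the median signal and 0.87 for 1 merged interval, and at 7.5 to 10 kb it was 0.90 and 0.92. With all regions centred on 0 the medians of the progenitor, lineage factor and myelin lists were −0.73, −0.44 and −0.08, and the newly formed oligodendrocyte median was 0.80 with 3 regions at 1 or more; on highest signal that median was 2.53. At or above the median signal, 46.3% of promoter, 34.6% of gene-body, 32.3% of downstream and 34.5% of gene-less regions were called in both. Of 171 ratios of named regions, 61 changed side of 1 or −1 with all regions centred on 0, and 8 to 24 under the other alternatives of scale, pseudocount and measure. Except where stated, the cause of a move was not tested. No paired analysis was possible because each state had 1 library, and no library could be left out. Unknown depth limits every comparison of the libraries.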
